A study of Mus musculus with 18 samples.

Results

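Transcripts of 9 transient receptor potential (TRP) channels were measured by bulk RNA-seq in the L3–L5 dorsal root ganglia (DRG) of CD1 mice, an outbred strain. The genes were *Trpa1*, *Trpv1*, *Trpv2*, *Trpv4*, *Trpm2*, *Trpm3*, *Trpm4*, *Trpm8* and *Trpc6*. They were taken by symbol, and each symbol matched 1 of the 36737 genes in the deposited table. The 18 libraries came from 3 groups of 6 adult mice, with 3 females and 3 males in each. Sham mice had sham surgery without fracture, and Fracture mice had a tibial fracture and received vehicle. Fracture+PDX mice had the same fracture and received protectin DX (PDX), a lipid mediator made from docosahexaenoic acid. The ganglia of both fracture groups were collected on day 3. The dose of PDX for these libraries and the collection day of the sham mice are not given in the sources used here. The labels name no transgene or deletion in any group. Each library came from 1 mouse, and bulk ganglion RNA holds neurons, glia, immune and vascular cells together, so fewer cells of a type and less RNA per cell cannot be told apart.

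TRP channels are cation channels of the plasma membrane that let calcium and sodium into the cell when opened by temperature, chemicals, lipids or changes in intracellular calcium. In sensory neurons, TRPV1 responds to noxious heat, acid and capsaicin, TRPA1 to electrophilic irritants such as allyl isothiocyanate, and TRPM8 to cooling and menthol. TRPA1 is found in a subset of nociceptors, TRPV1-expressing ones among them. Opening of either channel depolarises the nociceptor and can release neuropeptides from its terminals. The study used these samples to ask how fracture and PDX alter the DRG transcriptome, and *Trpa1* and *Trpv1* are set here beside 7 other members of the family.

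Library totals ran from 63235040 to 82824942 gene counts. The sex letter in a library's name matched its counts of *Xist* and *Ddx3y* in 18 of 18 libraries. Neuron markers summed to 7166 to 7631 CPM, counts scaled to a common library total, in sham, 7974 to 8190 in Fracture and 7883 to 8417 in Fracture+PDX mice, so that no sham library reached a library of either fracture group. Skeletal muscle markers summed to 11.1 to 996 CPM and placenta markers to 24.1 to 503 CPM over the 18 libraries, and their part in the results below was not tested. No library was left out. The sham libraries go by the sex letter and number of their column, since their names match the sham group but no single sample's title.

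**Levels of the channels.** All 9 genes were detected in all 18 libraries. Levels between genes were compared as deposited FPKM, the fragments per kilobase of transcript scaled to a common number of mapped fragments, in the 12 libraries of the fracture groups. The sham FPKM columns were not used, and sham levels are given below as CPM, which compare mice but not genes. *Trpv1* stood first in Fracture mice at 29.5 ± 2.01 FPKM (SD, n = 6), with a lowest value of 28.1, a median of 28.7 and a highest of 33.4. *Trpv2*, a relative of *Trpv1* that is found in larger-diameter neurons, followed at 17.3 ± 0.577 FPKM. *Trpa1* came next at 10.48 ± 0.891 FPKM, and then *Trpm8* at 9.60 ± 1.67 FPKM. The main channels for heat, irritants and cold were therefore among the 4 genes with the highest FPKM.

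The next gene lay 3.47-fold below *Trpm8* in FPKM. This was *Trpm4*, a channel that is opened by intracellular calcium and carries monovalent cations, at 2.77 ± 0.0863 FPKM in Fracture mice. Its exons, merged over all its transcripts, cover 10826 bases against 4732 for *Trpm8* (GENCODE M21). The mean CPM in Fracture mice was 33.2 for *Trpm4* and 50.3 for *Trpm8*. The gap and the order in FPKM thus depend on the length taken for each gene. *Trpm2*, opened by ADP-ribose and sensitive to oxidative stress and warmth, was at 2.42 ± 0.231 FPKM. *Trpc6*, opened by diacylglycerol, was at 2.09 ± 0.218 FPKM, and *Trpm3*, a heat-activated channel that neurosteroids open, was at 1.87 ± 0.264 FPKM. *Trpv4*, opened by warmth and by osmotic and mechanical stress and also found in glia, endothelium and macrophages, was lowest at 0.533 ± 0.132 FPKM. Its counts ran from 100 to 259 per library, against 6061 to 10780 for *Trpv1*.

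**Figure D1:**
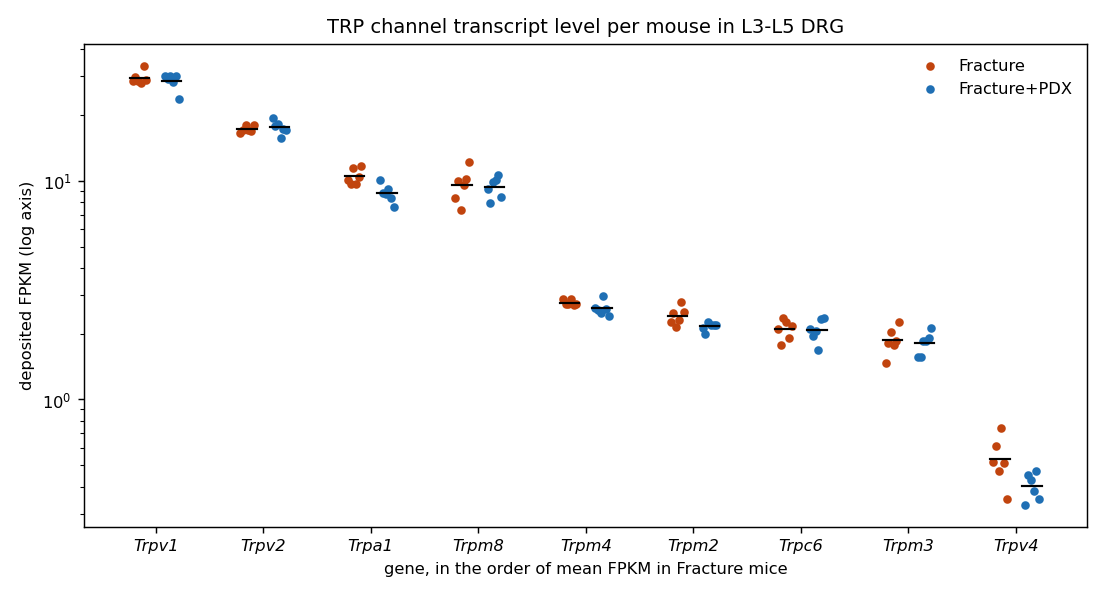
Deposited FPKM (log axis) of the 9 TRP genes in Fracture and Fracture+PDX mice, ordered by their mean in Fracture mice, with 1 point per mouse and a black line at the mean of 6 mice. *Trpv1*, *Trpv2*, *Trpa1* and *Trpm8* lie above the other 5 genes in both groups, and *Trpa1* and *Trpm8* change places in Fracture+PDX mice.

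Neighbours in this order were compared within the 6 Fracture mice with two-sided exact sign-flip tests, 8 in all, whose smallest possible p is 0.0313. The order was taken from these same mice, and the p-values are not adjusted for the 8 tests. A gene length shared by all mice would shift every mouse alike, so the tests speak only of FPKM and not of transcript number. For 4 of the 8 pairs the higher gene was higher in 6 of 6 mice, the ranges did not overlap and the exact p was 0.0313. These were *Trpv1* over *Trpv2*, *Trpv2* over *Trpa1*, *Trpm8* over *Trpm4* and *Trpm3* over *Trpv4*. The other 4 pairs did not differ beyond the spread between mice. *Trpa1* exceeded *Trpm8* in 4 of 6 mice (exact p = 0.406), *Trpm4* exceeded *Trpm2* in 5 of 6 (exact p = 0.0625), *Trpm2* exceeded *Trpc6* in 5 of 6 (exact p = 0.125) and *Trpc6* exceeded *Trpm3* in 4 of 6 (exact p = 0.188). In Fracture+PDX mice *Trpm8*, at 9.33 ± 1.04 FPKM, took rank 3 and *Trpa1*, at 8.75 ± 0.837 FPKM, rank 4, while the other 7 ranks were those of Fracture mice.

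The genes also differed in their spread between mice of 1 group. The pooled coefficient of variation within groups was 5.41% for *Trpv2* and 6.03% for *Trpm4*, 8.58% for *Trpa1*, 11.8% for *Trpv1*, 14.3% for *Trpm8* and 21.4% for *Trpv4*. *Trpv4* thus had the widest spread and the fewest counts. *Trpm3*, with 49.3 ± 5.95 CPM in Fracture+PDX mice, had as many reads as *Trpa1* or *Trpm8* but a lower FPKM. Its exons, merged over all its transcripts, cover 24437 bases against 4263 for *Trpa1* (GENCODE M21). A single transcript can be shorter than its gene's merged exons. How far the length taken for *Trpm3* lowers its FPKM was not tested.

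The genes lie on 7 chromosomes of mm10, the build named in the submitters' processing notes, and the deposited table gives their positions. *Trpa1* spans chr1:14872648-14918862 on the minus strand and *Trpm8* chr1:88277661-88388851 on the plus strand. *Trpv2* at chr11:62574486-62600515 and *Trpv1* at chr11:73234292-73261239 share a chromosome and the plus strand. *Trpv4* is at chr5:114622152-114658421 and *Trpm2* at chr10:77907722-77970563, both on the minus strand. *Trpm3* at chr19:22139046-22995410 and *Trpc6* at chr9:8544142-8680741 lie on the plus strand. *Trpm4* at chr7:45302632-45333780, on the minus strand, holds the processed pseudogene *Rpl14-ps1* on its other strand. This pseudogene took 2209 to 3027 counts per library but covers 0 bases of *Trpm4* exons. Antisense genes that cover exons of *Trpm3* and *Trpm8* took at most 60 counts per library.

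**Fracture.** No TRP channel gene passed the test between Fracture and sham mice. In edgeR's quasi-likelihood test with sex as a covariate, 20659 genes were tested and 603 (2.92%) had a Benjamini-Hochberg adjusted p under 0.05, with 0 of the 9 TRP genes among them. At an unadjusted p under 0.05 stood 1 of the 9, against 18.5% of all genes tested. The median log2 fold change of the 9 was 0.07, with 8 above 0, and that of all genes was 0.00. For comparison, the median of 10 neuron markers was 0.11, with 10 of 10 above 0 and *Tubb3* and *Uchl1* called higher. The CPM of Fracture and sham mice overlapped for each of the 9 genes, while 2.42% of 21340 genes did not overlap.

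*Trpv1* ranged from 93.1 to 137 CPM in sham mice, with a median of 116, and from 115 to 135 CPM in Fracture mice, with a median of 117. The sham mice formed an upper set of 3, between 132 and 137 CPM, and a lower set of 3, between 93.1 and 99.8 CPM, each with both sexes, and the Fracture mice lay mostly between them. The fold change of *Trpv1* was 1.04 (95% interval 0.886 to 1.22, edgeR, adjusted p = 0.836). *Trpa1* ranged from 41.7 to 53.4 CPM in sham mice, with a median of 46.9, and from 45.5 to 55.8 CPM in Fracture mice, with a median of 48.0. Its fold change was 1.05 (0.956 to 1.15, adjusted p = 0.616). *Trpm8* ranged from 38.2 to 54.0 CPM in sham and from 38.1 to 64.4 CPM in Fracture mice, and the fold change was 1.11 (0.950 to 1.30, adjusted p = 0.486). The ranges of Fracture and sham mice overlapped for all 3 genes.

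*Trpm4* showed the smallest p of the 9 genes in this comparison. Its lowest, median and highest values were 28.0, 30.6 and 33.7 CPM in sham mice and 32.0, 32.9 and 34.7 CPM in Fracture mice. All 6 Fracture mice lay above the sham median, and 2 lay above every sham mouse. The fold change was 1.09 (1.02 to 1.17), with an edgeR adjusted p = 0.157 and a two-sided exact permutation p = 0.0216. Leaving out 1 library at a time, which was chosen after seeing the data, the exact p lay between 0.00216 and 0.0476. Neuron markers moved the same way, and with their level as a covariate the *Trpm4* log2 fold change was 0.13, though that covariate nearly separates the groups.

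*Trpv2* lay between 79.4 and 91.2 CPM in sham and between 81.6 and 90.2 CPM in Fracture mice. *Trpm2* lay between 28.1 and 37.3 CPM in sham and between 29.5 and 38.3 CPM in Fracture mice, *Trpm3* between 42.4 and 50.8 and between 39.4 and 61.7 CPM, and *Trpv4* between 1.56 and 2.79 and between 1.61 and 3.34 CPM. *Trpc6*, the only one of the 9 with a fold change under 1, lay between 11.5 and 14.7 CPM in sham and between 10.1 and 13.1 CPM in Fracture mice. The edgeR adjusted p of these 5 genes was between 0.403 and 0.908, and none separated the groups. Without Fracture female 1 the exact permutation p of *Trpm3* was 0.0281, against 0.219 with all mice.

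**Figure D2:**
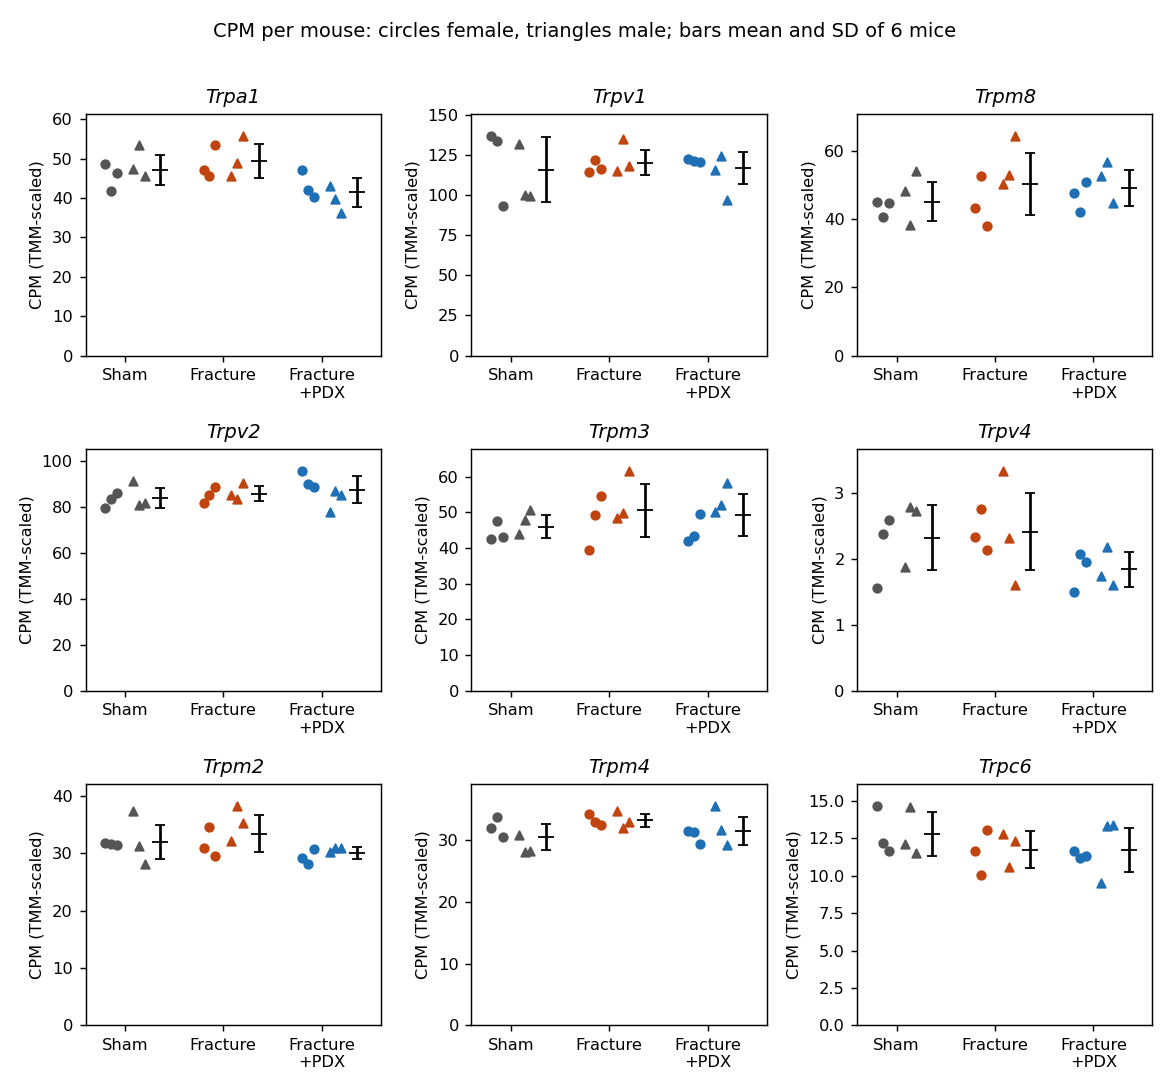
CPM of the 9 TRP genes in each of 18 mice (circles female, triangles male), with the mean and SD of the 6 mice of a group beside the points and axes from 0. The Fracture+PDX points of *Trpa1*, from 36.1 to 47.2 CPM, sit mostly below the Fracture points, while those of *Trpv1* and *Trpm8* lie among them.

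**PDX after fracture.** *Trpa1* was lower in Fracture+PDX than in Fracture mice by the exact test of that gene, but no TRP gene passed the adjustment over all genes. *Trpv1*, *Trpv2*, *Trpm3*, *Trpm8* and *Trpc6* differed by less than the spread between mice. After adjustment over 20562 genes 0 genes (0%) were called by edgeR and 10 by DESeq2, and neither tool called a TRP gene. At an unadjusted p under 0.05 edgeR had 1113 genes (5.41%) and 3 of the 9 TRP genes, *Trpa1*, *Trpm2* and *Trpv4*, all lower with PDX. The median log2 fold change of the 9 was -0.04, with 8 below 0, and that of all genes was 0.00. None of the 9 had groups that did not overlap in CPM, against 0.272% of 21340 genes.

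*Trpa1* had a lowest value of 45.5, a median of 48.0 and a highest of 55.8 CPM in Fracture mice, and a lowest of 36.1, a median of 41.1 and a highest of 47.2 CPM in Fracture+PDX mice. Of the 6 Fracture+PDX mice, 5 were below every Fracture mouse, and Fracture+PDX female 1 alone reached into their range. The fold change was 0.838 (95% interval 0.758 to 0.925), with an exact permutation p = 0.00866 and an edgeR adjusted p = 0.811, rank 39 among all genes by p. The lowest value was that of Fracture+PDX male 3, also the library with the fewest counts, 63235040. Leaving out 1 library at a time, the log2 fold change stayed between -0.30 and -0.21 and the exact permutation p between 0.00216 and 0.0195. With the neuron marker level as a covariate the log2 fold change was -0.26. Neutrophil markers summed to 80.4 to 170 CPM in Fracture and 71.8 to 419 CPM in Fracture+PDX mice, with 6 of 6 at an unadjusted p under 0.05 and higher, and their part in the *Trpa1* difference was not tested. Skeletal muscle markers had a median log2 fold change of -1.89 with 0 of 6 called, and their part was not tested either.

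*Trpa1* was lower in both sexes. In males its mean log2 CPM was 5.31 with PDX and 5.64 without, with all 3 Fracture+PDX males below all 3 Fracture males. In females the means were 0.18 apart in the same direction, and the mice overlapped. The exact permutation test of 3 against 3 cannot go below 0.1. The interaction of sex and group had an edgeR adjusted p = 0.998 for *Trpa1*, and over all genes 1 interaction (0.00486%) was called in this pair of groups.

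*Trpv1* ran from 115 to 135 CPM in Fracture mice, with a median of 117, and from 97.2 to 124 CPM in Fracture+PDX mice, with a median of 121. The groups overlapped, and Fracture+PDX male 3 was the only PDX mouse below every Fracture mouse. The fold change was 0.972 (0.889 to 1.06, edgeR adjusted p = 0.987, exact permutation p = 0.580). A fall of the size seen in *Trpa1* lay outside this interval, but the difference between the responses of both genes was not itself tested. *Trpm8* ran from 38.1 to 64.4 CPM in Fracture and from 42.0 to 56.6 CPM in Fracture+PDX mice, with a fold change of 0.980 (0.848 to 1.13, adjusted p = 0.996).

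*Trpm2* ran from 29.5 to 38.3 CPM in Fracture mice, with a median of 33.3, and from 28.2 to 30.9 CPM in Fracture+PDX mice, with a median of 30.5. All 6 Fracture+PDX mice lay below the Fracture median, and 2 lay below every Fracture mouse. The fold change was 0.899 (0.832 to 0.972), with an exact permutation p = 0.0368 and an edgeR adjusted p = 0.887. This exact p passed 0.05 only narrowly: without Fracture female 2, male 2 or male 3, or without Fracture+PDX female 1, female 2 or male 1, it lay between 0.0541 and 0.0736.

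*Trpv4* had the largest fold change and the fewest counts. It ran from 1.61 to 3.34 CPM in Fracture mice, with a median of 2.33, and from 1.501 to 2.18 CPM in Fracture+PDX mice, with a median of 1.84. The Fracture+PDX mice were all below the Fracture median but overlapped the lower Fracture mice. The fold change was 0.762 (0.585 to 0.991), with an exact permutation p = 0.0519 and an edgeR adjusted p = 0.912. Without Fracture male 3, the lowest Fracture mouse, the exact permutation p was 0.00649, and without Fracture+PDX male 2 it was 0.039, while without Fracture+PDX female 1 it was 0.106. On log2(FPKM + 1) with all mice it was 0.0455, where the limma log2 fold change was -0.13, a scale that understates changes of genes at so low a level. The log2 fold change was -0.39 with all mice and -0.26 without Fracture male 1. Beside it, 5 of 5 satellite glia markers and 6 of 7 macrophage markers had a log2 fold change above 0, with medians of 0.07 and 0.13, and 4 of 5 endothelial markers had one below 0, with a median of -0.06. Their part in the *Trpv4* values was not tested.

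*Trpm4* ran from 29.3 to 35.6 CPM with PDX and from 32.0 to 34.7 CPM without. Of the Fracture+PDX mice, 5 were below every Fracture mouse and male 1 was above all of them. The exact permutation p was 0.102 with all mice and 0.00216, the smallest it can give for 5 against 6 mice, without male 1. *Trpv2* ran from 77.7 to 95.7 CPM with PDX against 81.6 to 90.2 CPM without, *Trpm3* from 42.1 to 58.2 against 39.4 to 61.7 CPM, and *Trpc6* from 9.49 to 13.4 against 10.1 to 13.1 CPM. The fold changes of these 3 genes lay between 0.971 and 1.02 and their edgeR adjusted p between 0.989 and 0.998.

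**Figure D3:**
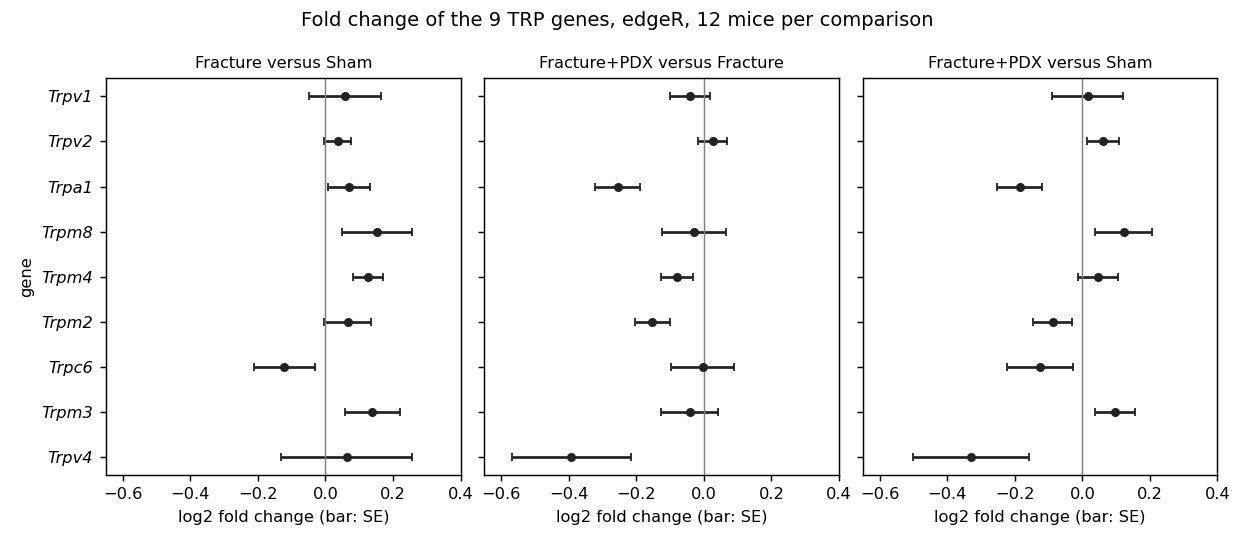
Log2 fold change of the 9 TRP genes in the 3 comparisons, with bars of 1 SE from edgeR's quasi-likelihood fit to 12 mice. *Trpa1* lies at -0.26 between Fracture+PDX and Fracture and at -0.19 between Fracture+PDX and sham, and *Trpv1* lies within 1 SE of 0 in all 3 panels.

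**Fracture with PDX against sham.** The same Fracture+PDX mice were set against the sham mice, so this comparison shares libraries with each of the others. Of 20574 genes tested, 925 (4.5%) were called, with 0 of the 9 TRP genes, and 1 of the 9 against 18% of all genes had an unadjusted p under 0.05. That gene was *Trpa1*, at 36.1 to 47.2 CPM in Fracture+PDX mice and 41.7 to 53.4 CPM in sham mice. The ranges overlapped, with 3 Fracture+PDX mice below every sham mouse and 5 below the sham median. The fold change was 0.879 (0.796 to 0.971), with an exact permutation p = 0.0303 and an edgeR adjusted p = 0.150. Without sham male 2, the highest sham mouse, the exact permutation p was 0.0563, and over the other 11 leave-outs it lay between 0.00866 and 0.0498. The neuron markers moved the other way, with a median log2 fold change of 0.16 and 5 of 10 called higher, led by *Syn1*, *Tubb3* and *Elavl3*.

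The other 8 genes had fold changes between 0.796 for *Trpv4* and 1.09 for *Trpm8*, with edgeR adjusted p between 0.339 and 0.965. With the neuron marker level as a covariate the log2 fold change of *Trpv4* went from -0.33 to -0.08, though that covariate nearly separates the groups. *Trpv1* had a fold change of 1.01 (0.861 to 1.19). *Trpm2* lay below the sham median in 6 of 6 Fracture+PDX mice, but its exact permutation p was 0.162 with all mice and 0.00216 without sham male 3, the lowest sham mouse. The exact permutation p of *Trpv4* was 0.0844 with all mice and 0.0195 without sham female 1. The CPM of the groups overlapped for all 9 genes, against 2.89% of 21340 genes whose groups did not overlap. Over the 27 exact tests of 9 genes in 3 comparisons, 4 had a p under 0.05, and these p-values are not adjusted.

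**Sex.** None of the 9 genes was called between 9 females and 9 males with group as a covariate, where 62 of 21340 genes (0.291%) were called. At an unadjusted p under 0.05 stood 2 of the 9, *Trpm3* and *Trpm8*, against 10.1% of all genes, and both were lower in females. *Trpm3* had a lowest value of 39.4, a median of 43.3 and a highest of 54.7 CPM in females and 43.9, 50.2 and 61.7 CPM in males. The female to male fold was 0.889 (0.811 to 0.975, edgeR adjusted p = 0.336), and the male mean was the higher one in each of the 3 groups. In Fracture+PDX mice all 3 males were above all 3 females, and in the other groups the sexes overlapped.

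*Trpm8* had a lowest value of 38.1, a median of 44.8 and a highest of 52.6 CPM in females and 38.2, 52.5 and 64.4 CPM in males. The fold was 0.878 (0.782 to 0.986, adjusted p = 0.417), again with the higher male mean in each group and overlapping mice. *Trpa1* had a female to male fold of 0.997 (0.920 to 1.08) and *Trpv1* one of 1.04 (0.931 to 1.17). No interaction of sex with group was called among the 9 genes, where 0 genes (0%) were called between Fracture and sham and 1 (0.00486%) between Fracture+PDX and sham.

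**Other TRP genes.** Of 19 further TRP genes, 15 or 16 passed the filter on low counts in each comparison of groups and 0 were called (edgeR). At an unadjusted p under 0.05 stood 0 in Fracture against sham, 2 in Fracture+PDX against Fracture and 1 in Fracture+PDX against sham, where 18.5%, 5.41% and 18% of all genes did. *Mcoln1*, a lysosomal channel, had a mean of 7.86 FPKM over the 12 libraries of the fracture groups. *Trpm7* had 4.004, *Pkd2* 3.95, *Trpc1* 3.19 and *Pkd2l2* 2.40 FPKM. A further 13 were below 1 FPKM, and *Trpc2*, *Pkd2l1*, *Mcoln3*, *Trpm1* and *Trpv5* had libraries with 0 counts. *Trpv3*, a warmth-gated channel of skin, was at 0.113 FPKM. Between Fracture+PDX and Fracture the median log2 fold change of 15 tested genes was -0.09, with 10 below 0. *Trpc1* and *Pkd2*, named after their values were seen, had an unadjusted p under 0.05, with log2 fold changes of -0.13 and -0.19 and an edgeR adjusted p of 0.887 and 0.912.

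**Partners, modulators and receptors.** TRP channels are tuned by binding partners, kinases and phosphoinositides, and by G protein–coupled and cytokine receptors upstream. Of 18 partner and modulator genes, 1 was called in Fracture against sham, where 2.92% of all genes were called. This was *Tcaf1*, whose protein binds TRPM8 and promotes its traffic to the membrane. *Tcaf1* was at 222 to 241 CPM in sham mice, 242 to 263 CPM in Fracture mice and 243 to 271 CPM in Fracture+PDX mice, so neither fracture group overlapped sham. Its fold was 1.09 (1.04 to 1.14, edgeR adjusted p = 0.0440) in Fracture and 1.096 (1.05 to 1.15, adjusted p = 0.0300) in Fracture+PDX mice. In Fracture against sham 8 of the 18 had an unadjusted p under 0.05, all higher, against 18.5% of all genes in either direction, and the list's median log2 fold change was 0.07. The neuron markers, with a median of 0.11, moved the same way. With their level as a covariate 0 genes were called in either comparison with sham, so *Tcaf1* and *Gabbr1* were not called either. That covariate nearly separates sham from the fracture groups by itself, so the loss of these calls shows nothing about the genes.

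Of 17 receptor genes, 16 passed the filter in the group comparisons and 1 was called against sham in both fracture groups, a count close to the 2.92% and 4.5% of all genes called. This was *Gabbr1*, a subunit of the GABA-B receptor, at 399 to 424 CPM in sham, 414 to 466 CPM in Fracture and 410 to 459 CPM in Fracture+PDX mice. Its fold was 1.09 (1.05 to 1.14, edgeR adjusted p = 0.0328) in Fracture and 1.08 (1.03 to 1.12, adjusted p = 0.0441) in Fracture+PDX mice, and the ranges overlapped with sham. *Gpr37*, the receptor of PDX studied in this work, was at 16.3 ± 1.32 CPM in sham, 17.3 ± 1.24 CPM in Fracture and 17.98 ± 1.36 CPM in Fracture+PDX mice (SD, n = 6), with an edgeR adjusted p of 0.536, 0.980 and 0.303 in the 3 comparisons.

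Between Fracture+PDX and Fracture 1 of 18 partner genes and 1 of 16 receptor genes had an unadjusted p under 0.05, a share close to the 5.41% of all genes, so that these counts are no result about either list. Both genes were lower with PDX and are named after their values were seen. *Tmem100*, which encodes an adaptor between TRPA1 and TRPV1, was at 21.8 to 24.0 CPM in Fracture and 17.8 to 21.8 CPM in Fracture+PDX mice, without overlap, with a fold of 0.877 (0.810 to 0.951, edgeR adjusted p = 0.811). *Mrgpra3*, an itch receptor whose signal runs through TRPA1, was at 13.0 to 18.2 CPM in Fracture and 9.56 to 13.3 CPM in Fracture+PDX mice, with a fold of 0.779 (0.663 to 0.914, adjusted p = 0.811). Of 12 nociceptor genes other than TRP channels, 0 were called, and their median log2 fold change was -0.04, with 8 below 0.

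Of 9 axon injury genes, 5 were called higher in Fracture than in sham mice (*Atf3*, *Sprr1a*, *Sox11*, *Ecel1* and *Npy*) and 6 in Fracture+PDX than in sham mice, these 5 among them, where 2.92% and 4.5% of all genes were called. Among markers of other cell types in Fracture against sham, *Nefh*, 1 of 5 large-fiber neuron markers, was called higher. Called lower were *Csf1r* and *Adgre1* (2 of 7 macrophage markers), *Cdh5* (1 of 5 endothelial) and *Dcn* (1 of 4 fibroblast). Of these lists, only 1 endothelial marker went the other way. In Fracture+PDX against sham *Kcnj10* (1 of 5 satellite glia markers) was called higher. Called lower were *Csf1r* (1 of 7), *Cdh5* (1 of 5) and *Tpbpa*, *Prl3b1*, *Prl8a8* and *Psg21* (4 of 5 placenta markers). There 2 macrophage markers and 1 satellite glia marker went the other way. The part of these genes in the TRP values was not tested.

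**Figure D4:**
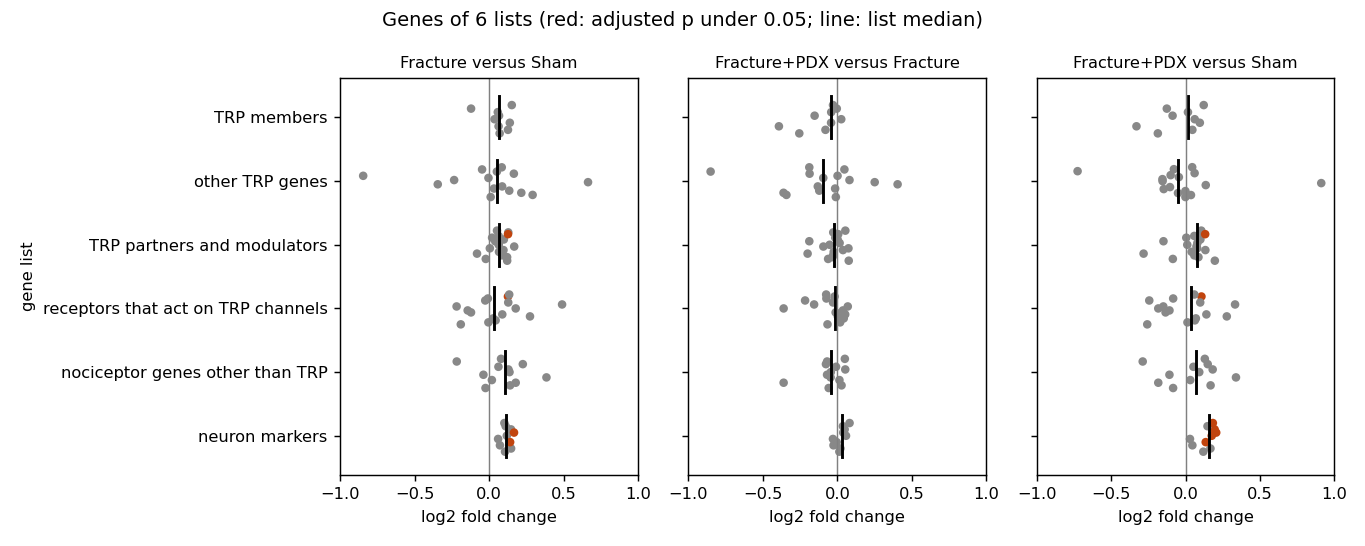
Log2 fold change of each tested gene of 6 lists in the 3 comparisons, with a black line at the list's median and red points at an edgeR adjusted p under 0.05. No gene is red in the Fracture+PDX versus Fracture panel, and the neuron markers hold 2 red points in the first and 5 in the third panel.

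**Variation between mice.** After the mean of each sex and group was removed, the log2 CPM of the 9 genes was correlated over the 18 libraries in 36 pairs, with 100000 permutations for each. None had a Benjamini-Hochberg adjusted p under 0.05. The largest by Pearson r was between *Trpv1* and *Trpm2* (Pearson r = 0.53, permutation p = 0.0235, adjusted p = 0.405; Spearman rho = 0.55, permutation p = 0.0197, adjusted p = 0.270), and r was 0.49 once the 2 mice with the most extreme *Trpv1* were left out. The largest by Spearman rho was between *Trpm3* and *Trpm4* (rho = -0.56, permutation p = 0.0173, adjusted p = 0.270; r = -0.48, permutation p = 0.0450, adjusted p = 0.405), with an r of -0.51 once the 2 mice with the most extreme *Trpm3* were left out. *Trpa1* and *Trpv1* had an r of 0.01 (permutation p = 0.966, adjusted p = 0.966) and a rho of 0.05 (permutation p = 0.831, adjusted p = 0.935), with an r of 0.06 once the 2 mice with the most extreme *Trpa1* were left out. No relation between these 2 genes was detectable over 18 mice.

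The genes whose deviations were most like those of *Trpa1*, *Trpv1* and *Trpm8* were found among 10560 genes with a mean of at least 10 CPM, by Pearson r over the 18 libraries, which is a description without a test. For *Trpa1* they were *Inip* (r = 0.85), *Zfp788* (0.84), *Zfp652* (0.78), *Ttc13* (0.75) and *Slc31a1* (0.73). For *Trpv1* they were *Cyb561d1* (r = 0.89), *Gpx3* (0.89), *Negr1* (0.88), *Steap3* (0.88) and *Sri* (0.85). For *Trpm8* they were *Nfyb* (r = 0.88), *Clip1* (0.85), *Ankrd50* (0.82), *Rab2b* (0.81) and *Zfr* (0.80). No other TRP channel was among these 15 genes, and the points share the depth and composition of their libraries.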

How the data were processed

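Poly(A) RNA of L3–L5 DRG was sequenced as stranded paired-end libraries. The authors deposited raw counts per gene and FPKM values, scaled for transcript length and mapped fragments. The submitters' processing notes name cutadapt 1.10, FastQC, HISAT2, StringTie and mm10, without roles. The counting program, its strand setting and the annotation release are not given in the sources used here. The sham columns (Con) match the sham group, the only one without fracture, but no single sample title. Their counts were assigned to the group as a whole, with sex from the letter in the column name, and 6 columns of per-sample values, the sham FPKM, were not used. The order of levels, planned in sham mice, was therefore tested in Fracture mice.

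The count tests ran under R 4.3.3 and edgeR 4.0.16 (filterByExpr with minimum count 10 and minimum total count 15, TMM, robust quasi-likelihood F-test). The model held sex and group over the 12 libraries of a pair of groups, or group and sex over all 18, and p-values were Benjamini-Hochberg adjusted over all genes tested. CPM values were TMM-scaled over the 18 libraries, and exact permutation tests used log2 CPM with a prior count of 2. Intervals are 95% intervals of the fold change from the fitted error. The fits were tested on simulated data. Depth was 63235040 to 82824942 counts per library.

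The 9 members and the gene lists were chosen with earlier results of these data known, and the lists come from general knowledge. All 9 members are reported. Of the other lists, genes called at an adjusted p under 0.05 are named (at most 5 per list and comparison), with *Gpr37* and the 5 most similar genes. 1 item that the rule would name is not reported here. Replicates are separate mice. Alternatives were DESeq2 1.42.0, upper-quartile scaling, other filters, no sex covariate, a replicate block, 1 fit over all libraries, limma 3.58.1 on log2 FPKM with a pseudocount of 1 or 0.1 (Fracture+PDX versus Fracture only), the neuron marker level as a covariate, another prior count and leaving out each library.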

Additional observations from a re-analysis of the deposited data

Results flagged for a closer look

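In 27 groups of 6 mice (9 genes in 3 groups), the gap between an extreme mouse and its nearest neighbour was set against the range of its group with Dixon's 95% critical value, which chance passes in about 1 of 20 groups. In 3 groups a mouse stood apart. Fracture male 2 had 135 CPM of *Trpv1*, with a gap of 0.660 of the range, and Fracture+PDX male 3 had 97.2 CPM of *Trpv1*, with a gap of 0.674. Fracture+PDX male 1 had 35.6 CPM of *Trpm4*, with a gap of 0.634. Without 1 library at a time, the log2 fold change of *Trpv1* between Fracture+PDX and Fracture lay between -0.07 and 0.01, and that of *Trpm4* between -0.12 and -0.06.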

How the results depend on the processing

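No TRP gene was called in any of the 83 alternative fits, and 712 alternative log2 fold changes kept their direction while 35 did not. The number of genes called with DESeq2 was 1506 in Fracture versus sham, 10 in Fracture+PDX versus Fracture, 1627 in Fracture+PDX versus sham and 327 between the sexes. With the neuron marker level as a covariate it was 0 in both comparisons with sham, which that covariate nearly separates by itself, and 99 between the sexes. Leaving out 1 library gave 213 to 710 genes, 0 to 1, 498 to 1008 and 24 to 86, in the same order. The cause was not tested.

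Under the neuron covariate the log2 fold change turned to -0.050 for *Trpv2*, -0.053 for *Trpv4*, -0.0045 for *Trpm2* and -0.13 for *Trpm8* in Fracture versus sham and to -0.029 for *Trpm4* in Fracture+PDX versus sham. Under it other values kept their sign but moved by over 1.5 times. In Fracture versus sham they were 0.22 for *Trpv1*, 0.046 for *Trpa1*, 0.047 for *Trpm3* and -0.063 for *Trpc6*. In Fracture+PDX versus sham they were 0.28 for *Trpv1*, 0.036 for *Trpv2*, -0.081 for *Trpv4*, -0.14 for *Trpm2*, 0.19 for *Trpm3* and 0.074 for *Trpm8*, and in Fracture+PDX versus Fracture -0.020 for *Trpv1*, 0.015 for *Trpv2*, -0.068 for *Trpm3* and -0.048 for *Trpm8*. That of *Trpa1* between the sexes was 0.00058 with upper-quartile scaling. Leaving out 1 library turned small log2 fold changes. The ranges were, in Fracture versus sham, -0.0052 to 0.11 for *Trpv1* and -0.063 to 0.17 for *Trpv4*. In Fracture+PDX versus Fracture they were -0.066 to 0.010 for *Trpv1*, -0.092 to 0.011 for *Trpm3*, -0.086 to 0.032 for *Trpm8* and -0.043 to 0.058 for *Trpc6*. In Fracture+PDX versus sham they were -0.052 to 0.080 for *Trpv1* and -0.00067 to 0.075 for *Trpm4*, and between the sexes -0.034 to 0.022 for *Trpa1* and -0.13 to 0.018 for *Trpv4*. For genes whose difference of mean log2 CPM turned without at least 1 library, the exact permutation p over all 12 leave-outs of Fracture+PDX versus Fracture ran from 0.487 to 0.968 for *Trpv1*, 0.115 to 0.994 for *Trpv2*, 0.323 to 0.987 for *Trpm3*, 0.390 to 0.991 for *Trpm8* and 0.539 to 0.981 for *Trpc6*. It ran from 0.511 to 0.944 for *Trpv1* in Fracture+PDX versus sham and from 0.405 to 0.985 for *Trpv4* in Fracture versus sham.

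With the replicate block, fitted for Fracture+PDX versus Fracture, 0 genes were called and the log2 fold change of *Trpa1* was -0.25, of *Trpm2* -0.15 and of *Trpv4* -0.37. Same-numbered mice correlated at 0.40, 0.22 and 0.20 in the 3 male pairs and at 0.000090, -0.088 and -0.18 in the 3 female pairs. Since not every pair was over 0.1, the numbers were not taken to pair the mice. The block for the comparisons with sham, and FPKM alternatives there and between the sexes, were not run, because sham columns match no single sample. *Trpv4* had the fewest counts, 100 to 259 per library.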
